A study of Mus musculus with 11 samples.

Results

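Immediate early genes are switched on within minutes of a stimulus without new protein synthesis, and 10 of them, Atf3, Fos, Fosb, Jun, Junb, Egr1, Ier2, Dusp1, Zfp36 and Nr4a1, were followed through the skin of neonatal mice depleted of regulatory T cells (Tregs). The 10 genes were picked by name from the 49315 genes of the count table. Atf3 was picked because it was higher than control in every depleted group, so its values against control are a description, without a test. The other 9 belong to the same families or to the same early response. All 11 libraries came from Foxp3-DTR mice on the C57BL/6J background, controls included, in which the diphtheria toxin (DT) receptor fused to GFP is made from the Foxp3 locus, so that DT kills Foxp3+ cells in every organ and not in skin alone. The 2 control mice received PBS and were Treg-sufficient. The 3 ΔETreg mice received DT at 30 ng/g on P6 and P8 and were harvested on P9. The 3 ΔLTreg mice received the same dose on P10 and P12 and were harvested on P13. The 3 ΔTreg mice received 4 doses from P6 to P12 and were harvested on P13. The study describes its comparisons with control as age-matched. On which day either control mouse was harvested is not in the labels, and both entered every comparison with control here, so the part of age in those comparisons was not tested. ΔETreg skin was also younger than that of the other depleted groups.

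Most of these genes encode transcription factors. Fos, Fosb, Jun, Junb and Atf3 belong to the basic leucine zipper families that pair into the dimer called AP-1: FOS proteins need a JUN partner, JUN proteins can also pair with each other, and ATF3 is a stress-induced member that can act as a repressor. Egr1 encodes a zinc finger factor and Nr4a1 an orphan nuclear receptor, both induced by growth factor and antigen receptor signals, and Ier2 encodes a small nuclear protein of the same early wave. Dusp1 and Zfp36 close the loop: DUSP1 removes phosphate from the MAP kinases that drive the response, and ZFP36 (tristetraprolin) binds AU-rich messenger RNAs, many of them for cytokines, and speeds their decay. In skin the genes respond to growth factors, cytokines, wounding and irritants, and they are also known to be induced when tissue is cut, cooled or dissociated.

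Each library came from whole skin of 1 mouse, so a change in the number of cells of a type and a change in RNA per cell cannot be told apart. Total counts ran from 23377571 to 34159435, and mitochondrial genes took 1.13% to 1.89% of them. The 6 keratinocyte markers summed to 12321.6 to 15169.0 CPM (read counts scaled to a common library size by TMM) across the 11 libraries, so the defining genes of skin epithelium were present. Foxp3, whose locus carries the receptor, had 20 and 14 counts in control and 9 to 23 counts in the depleted mice, and the groups overlapped at this depth. The depletion is thus not visible in these counts. The study reports it from flow cytometry of skin, on P9 for the ΔETreg and on P13 for the ΔLTreg regimen. One library stood apart for the genes described here. ΔLTreg mouse 1 had 3 of the 10, Fos, Fosb and Dusp1, at 2 or more times the higher of its group mates, as had 0.941% of all 18375 genes tested in that library, and it had the highest mitochondrial share of all. The counts of genes called, the medians and the larger shifts in the ΔLTreg comparisons are therefore given with and without it.

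All 10 genes passed the filter on low counts. Per kilobase of exon, the median level over the 11 mice was highest for Junb (133 CPM per kb), followed by Jun (67.3), Ier2 (63.6) and Egr1 (55.7). Zfp36 (20.6), Dusp1 (12.6), Fos (9.32), Atf3 (5.90) and Nr4a1 (4.54) came next and Fosb was lowest at 0.527 CPM per kb. The genes lie on 8 chromosomes of GRCm38, and all are protein-coding. Ier2 (chr8:84661331-84662852) and Junb (chr8:84974484-84978718) are separated by 311632 bp, and Fosb (chr7:19302696-19310051) and Zfp36 (chr7:28376784-28380253) by 9066733 bp. Jun is at chr4:95049034-95052222. Atf3 is at chr1:191170296-191218039, Fos at chr12:85473890-85477273, Dusp1 at chr17:26505590-26562128 and Nr4a1 at chr15:101254269-101274795.

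The stretch just upstream of the start is shown for Atf3, the gene that led the choice of members, and for Fos, Fosb and Dusp1, the members that moved together in ΔLTreg mouse 1. The sequences are RefSeq promoters (GRCm38.p6), 250 bases ending at the base before the start, on the strand of the gene, and the capitals mark TGACG, the core of the cAMP response element, read on either strand (CGTCA on the opposite one). That element is bound by CREB and ATF factors. The RefSeq starts of Atf3, Dusp1, Nr4a1 and Zfp36 lie well within the longer gene of the annotation used here for positions. 
Atf3, chr1:191183334-191183583, minus strand: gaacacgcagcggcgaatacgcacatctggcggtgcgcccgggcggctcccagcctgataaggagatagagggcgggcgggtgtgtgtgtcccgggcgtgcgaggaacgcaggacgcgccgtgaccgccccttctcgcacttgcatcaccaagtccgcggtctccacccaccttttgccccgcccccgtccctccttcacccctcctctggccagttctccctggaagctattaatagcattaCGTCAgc
Fos, chr12:85473640-85473889, plus strand: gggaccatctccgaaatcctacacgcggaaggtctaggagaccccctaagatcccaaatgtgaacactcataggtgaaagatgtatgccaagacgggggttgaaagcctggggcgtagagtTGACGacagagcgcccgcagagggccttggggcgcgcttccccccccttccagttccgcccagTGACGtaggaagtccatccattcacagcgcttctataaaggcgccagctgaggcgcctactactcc
Fosb, chr7:19310046-19310295, minus strand: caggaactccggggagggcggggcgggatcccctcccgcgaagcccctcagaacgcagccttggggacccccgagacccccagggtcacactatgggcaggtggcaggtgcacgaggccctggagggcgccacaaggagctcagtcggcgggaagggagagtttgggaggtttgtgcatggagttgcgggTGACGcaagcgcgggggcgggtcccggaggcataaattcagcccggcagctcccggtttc
Dusp1, chr17:26508473-26508722, minus strand: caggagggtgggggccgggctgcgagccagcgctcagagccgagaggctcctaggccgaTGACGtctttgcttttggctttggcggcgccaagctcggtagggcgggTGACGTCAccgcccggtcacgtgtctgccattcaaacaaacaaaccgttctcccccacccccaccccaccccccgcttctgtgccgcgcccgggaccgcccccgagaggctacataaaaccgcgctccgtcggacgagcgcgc

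Motifs were counted over windows that run on for 50 bases past the start, which were found for 8 of the 10 genes (Egr1 and Ier2 had none). The core TGACG was present in 6 of the 8, Atf3, Fos, Fosb, Junb, Dusp1 and Nr4a1, and in 20.8% of all 32851 windows. The 8 windows were richer in G and C, at 58.7% to 72.3%, than the median of all windows, 52.7%. The part of base composition in these counts was not tested. The full element TGACGTCA, which contains the core on both strands, was present in 1 member, Dusp1, and in 1.79% of all windows. The AP-1 site TGACTCA was in none of the 8 windows, against 5.2% of all. The CArG box, bound by serum response factor, was in the window of Zfp36 and in 1.63% of all. The TATA box TATAAA was in those of Fos and Junb (13.6% of all), and the CCAAT box CCAAT in those of Atf3, Jun and Junb (37.4% of all). These are matches of letters and not measured sites.

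Atf3 was higher in each of the 9 depleted mice than in both controls. The level was 4.94 CPM in both control mice. It was 12.5, 13.1 and 16.6 CPM in the ΔETreg mice, 13.5, 11.5 and 9.86 CPM in the ΔLTreg mice and 15.6, 15.2 and 12.7 CPM in the ΔTreg mice. The lowest depleted mouse thus stood well above the controls, and the 3 depleted groups overlapped one another. The fitted log2 fold changes against control were 1.504 for ΔETreg, 1.24 for ΔLTreg and 1.55 for ΔTreg, each with an SE of 0.17, or 2.84-, 2.36- and 2.93-fold. The difference between depleted groups, which did not enter the choice of Atf3, did not pass the test: ΔTreg minus ΔLTreg was 0.31 (SE 0.14, edgeR quasi-likelihood test, Benjamini-Hochberg adjusted p = 0.151). ΔETreg minus ΔLTreg was 0.27 (SE 0.14, edgeR adjusted p = 0.286). Without ΔLTreg mouse 1 these differences were 0.44 (edgeR adjusted p = 0.0637) and 0.39 (adjusted p = 0.138), and the log2 fold change of ΔLTreg against control was 1.11.

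**Figure D1:**
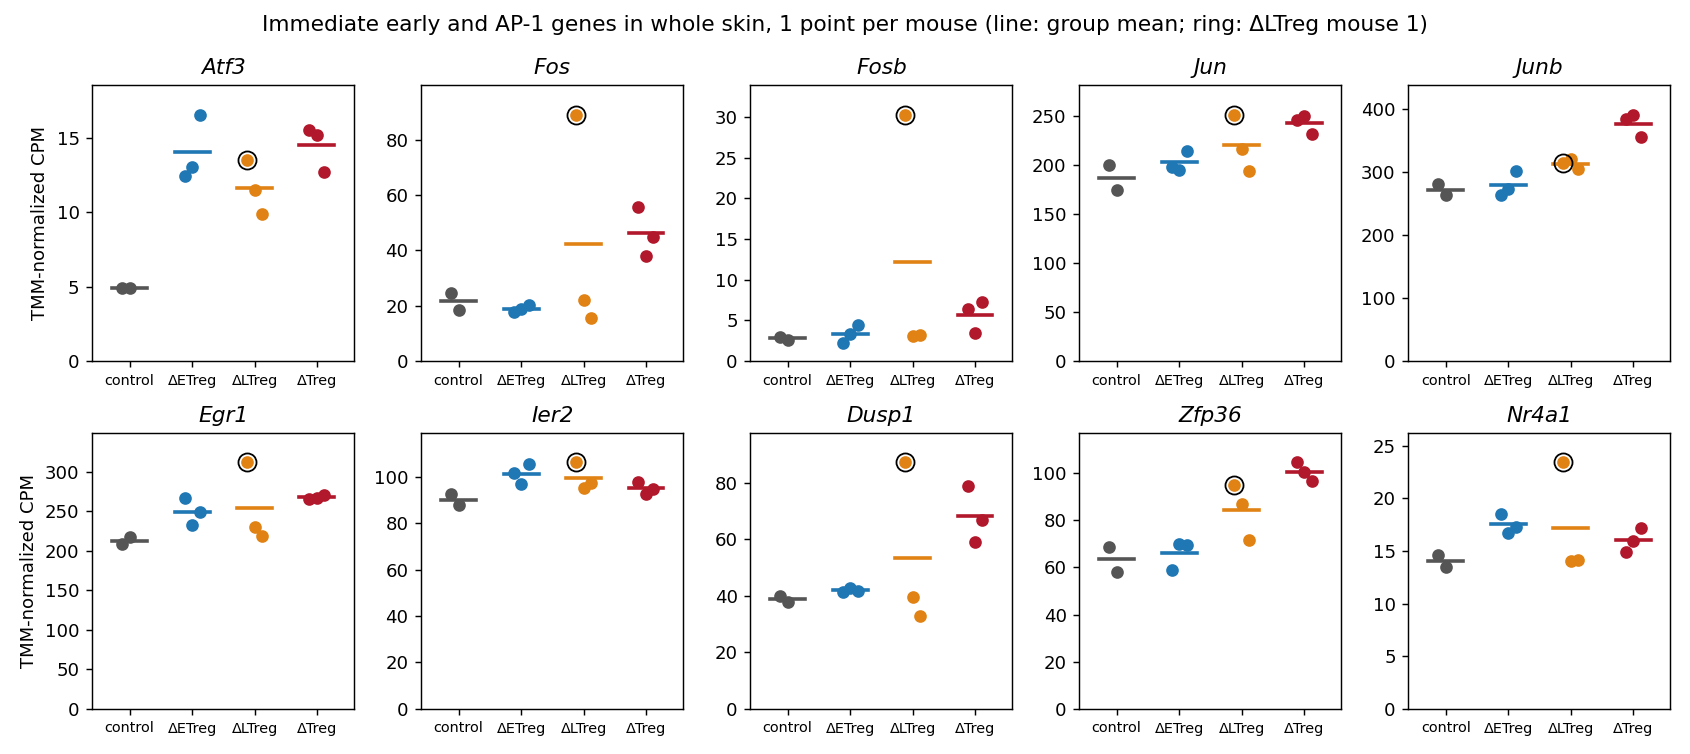
TMM-scaled CPM (vertical axis, linear, from 0) of the 10 genes in control, ΔETreg, ΔLTreg and ΔTreg skin, with 1 point per mouse, a line at each group mean and a ring around ΔLTreg mouse 1. Atf3 lies at 4.94 CPM in both controls and at 9.86 CPM or above in the 9 depleted mice, while Fos, Fosb and Dusp1 are pulled up in the ΔLTreg group by the ringed mouse.

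The FOS genes behaved differently from Atf3. Fos was at 24.7 and 18.6 CPM in control, 17.7, 18.7 and 20.1 CPM in ΔETreg, 89.1, 21.9 and 15.7 CPM in ΔLTreg and 55.9, 38.0 and 44.8 CPM in ΔTreg skin. Both controls, all ΔETreg mice and 2 of the 3 ΔLTreg mice thus lay below every ΔTreg mouse, and ΔLTreg mouse 1 lay above all of them. Fosb was at 3.01 and 2.63 CPM in control, 2.19, 3.29 and 4.46 CPM in ΔETreg, 30.3, 3.10 and 3.19 CPM in ΔLTreg and 6.43, 3.42 and 7.30 CPM in ΔTreg skin. The same ΔLTreg mouse held the highest value, with 1016 Fosb counts against 79 and 102 in its group mates, and the ΔTreg mice lay above control but overlapped ΔETreg. The standard errors of these genes were accordingly wide, 0.58 for Fos and 0.92 for Fosb in ΔTreg against control.

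The JUN genes were the most abundant of the AP-1 members and varied little between mice. Junb was at 281 and 264 CPM in control, 264, 273 and 302 CPM in ΔETreg, 314, 322 and 305 CPM in ΔLTreg and 384, 392 and 356 CPM in ΔTreg skin. The ΔTreg mice were above all others, and the ΔLTreg mice above both controls and the ΔETreg mice. Jun was at 199.9 and 174 CPM in control, 198, 195 and 215 CPM in ΔETreg, 251, 216 and 194 CPM in ΔLTreg and 246, 250.3 and 232 CPM in ΔTreg skin. Here the ΔTreg mice cleared control and ΔETreg, while the ΔLTreg mice spanned both. Of the 2301 exon bases of Junb, 173 are shared with Prdx2 on the opposite strand, which had up to 10267 counts in a library, and of the 3189 of Jun, 232 are shared with the antisense gene Junos. The strand setting of the counting is not given in the sources used here, so reads in those bases may belong to either gene.

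Egr1, Nr4a1 and Ier2 varied over narrower ranges than the FOS genes, with the highest of the 11 mice at 1.497, 1.73 and 1.21 times the lowest. Egr1 was at 209 and 218 CPM in control, 267, 233 and 249.6 CPM in ΔETreg, 312, 231 and 219.5 CPM in ΔLTreg and 266, 267 and 271 CPM in ΔTreg skin. All 9 depleted mice lay above both controls, by a small margin in ΔLTreg mouse 3. Ier2 was at 92.5 and 87.7 CPM in control, 102, 96.7 and 106 CPM in ΔETreg, 106, 95.1 and 97.3 CPM in ΔLTreg and 97.6, 92.5 and 94.8 CPM in ΔTreg skin. Its depleted mice also all lay above both controls, but the lowest of them and the higher control were both at 92.5 CPM to 3 digits. Nr4a1 was at 14.6 and 13.5 CPM in control, 18.5, 16.7 and 17.3 CPM in ΔETreg, 23.4, 14.0 and 14.1 CPM in ΔLTreg and 14.9, 15.9 and 17.2 CPM in ΔTreg skin. ΔLTreg mice 2 and 3 lay between the controls, and the other 7 depleted mice above them. Besides Atf3, which was picked for this pattern, Egr1 and Ier2, 2 of the other 9 genes, had all 9 depleted mice above both controls, as had 2.9% of all genes tested.

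The feedback genes differed from each other: Dusp1, like Fos, had its highest value in ΔLTreg mouse 1, and Zfp36, like Junb, had its highest values in ΔTreg skin. Dusp1 was at 39.96 and 37.8 CPM in control, 41.3, 42.8 and 41.6 CPM in ΔETreg, 87.2, 39.7 and 32.8 CPM in ΔLTreg and 78.8, 59.2 and 66.9 CPM in ΔTreg skin. The ΔTreg mice lay above every other mouse but ΔLTreg mouse 1. Zfp36 was at 68.7 and 58.2 CPM in control, 58.9, 70.1 and 69.6 CPM in ΔETreg, 94.8, 86.9 and 71.5 CPM in ΔLTreg and 105, 101 and 96.7 CPM in ΔTreg skin. The 3 ΔTreg mice were the highest of all 11, and the 3 ΔLTreg mice came next. Zfp36 shares 125 of its 3470 exon bases with the antisense gene Gm44710, which had at most 19 counts in a library, and Dusp1 shares 11 of 3311 with Ergic1.

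Against control, early depletion left the 9 genes other than Atf3 without a call. In ΔETreg skin 0 of 9 passed an edgeR adjusted p of 0.05, 1 had an unadjusted p under 0.05 and DESeq2 called 0. DESeq2 called 0.106% of the genes it tested. Of all genes tested in edgeR, 0.00544% were called in this comparison, and 4.75% had an unadjusted p under 0.05. Without ΔLTreg mouse 1 the count was also 0 of 9, where 0.00549% of all genes were called. The median log2 fold change of the 9 was 0.11, against -0.0098 for all genes. The values ran from -0.20 (SE 0.58) for Fos to 0.32 (SE 0.19) for Nr4a1, with Ier2 at 0.17 (SE 0.060) and Egr1 at 0.23 (SE 0.13). Egr1, Ier2, Dusp1 and Nr4a1 lay above control without overlap, as did 9.35% of all genes.

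Late depletion gave the same count. In ΔLTreg skin 0 of 9 were called, 5 had an unadjusted p under 0.05 and DESeq2 called 0. DESeq2 called 4.03% of the genes it tested. In edgeR 4.55% of all genes were called and 20.2% had an unadjusted p under 0.05. Fosb, Junb, Egr1, Ier2 and Zfp36 lay above control without overlap, as did 15.0% of all genes. The median log2 fold change was 0.29, against 0.0040 for all genes, but without ΔLTreg mouse 1 it was 0.096, against 0.0048. Zfp36 came closest, at 0.41 (SE 0.12, edgeR adjusted p = 0.0770), or 0.32 (adjusted p = 0.144) without that mouse. Fosb had the highest fitted value, 2.12 (SE 0.91, edgeR adjusted p = 0.22), and this rested on 1 mouse: without ΔLTreg mouse 1 it was 0.16, and Fos went from 0.97 to -0.21 and Dusp1 from 0.46 to -0.10. Still 0 of 9 were called without that mouse, where 4.96% of all genes were. Zfp36 was called without ΔLTreg mouse 3, at a log2 fold change of 0.52 (edgeR adjusted p = 0.0142).

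Full depletion was the comparison in which these genes were called. In ΔTreg skin Junb, Zfp36 and Jun rose against control, 3 of 9, where 12.1% of all genes were called higher and 21.5% in either direction. Junb rose by 0.47 on the log2 scale (SE 0.073, 1.38-fold, edgeR adjusted p = 0.00105), Zfp36 by 0.66 (SE 0.12, 1.59-fold, adjusted p = 0.00242) and Jun by 0.38 (SE 0.10, 1.30-fold, adjusted p = 0.0231). All 3 ΔTreg mice lay above both controls for every one of the 9 genes, as they did for 26.8% of all genes tested. The median log2 fold change of the 9 was 0.47, against -0.0059 for all genes. Fos was at 1.09 (SE 0.58, edgeR adjusted p = 0.213), Fosb at 1.01 (SE 0.92, adjusted p = 0.479), Dusp1 at 0.81 (SE 0.32, adjusted p = 0.101) and Egr1 at 0.33 (SE 0.13, adjusted p = 0.0871). Nr4a1, at 0.19 (SE 0.19), and Ier2, at 0.076 (SE 0.060), were nearest to 0.

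The spread that these tests used came from all 4 groups, ΔLTreg mouse 1 included. Without that library 6 of the 9 rose in ΔTreg against control, where 24.8% of all genes were called in either direction. The fold changes were the same to within 0.01, and Fos (edgeR adjusted p = 0.00236), Dusp1 (adjusted p = 0.000759) and Egr1 (adjusted p = 0.00342) joined Junb, Zfp36 and Jun. A fit of the control and ΔTreg libraries alone called the same 6, where 22.4% of all genes were called, and DESeq2 called 7, where 3521 of 19580 genes were, the added gene being Fosb. The call of Jun was lost without control mouse 2 (log2 fold change 0.27, edgeR adjusted p = 0.211), without ΔTreg mouse 1 (0.36, adjusted p = 0.0665) or without ΔTreg mouse 2 (0.35, adjusted p = 0.0677). The 3 comparisons with control share the same 2 mice, and their values are set side by side here without a test of one against the other.

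**Figure D2:**
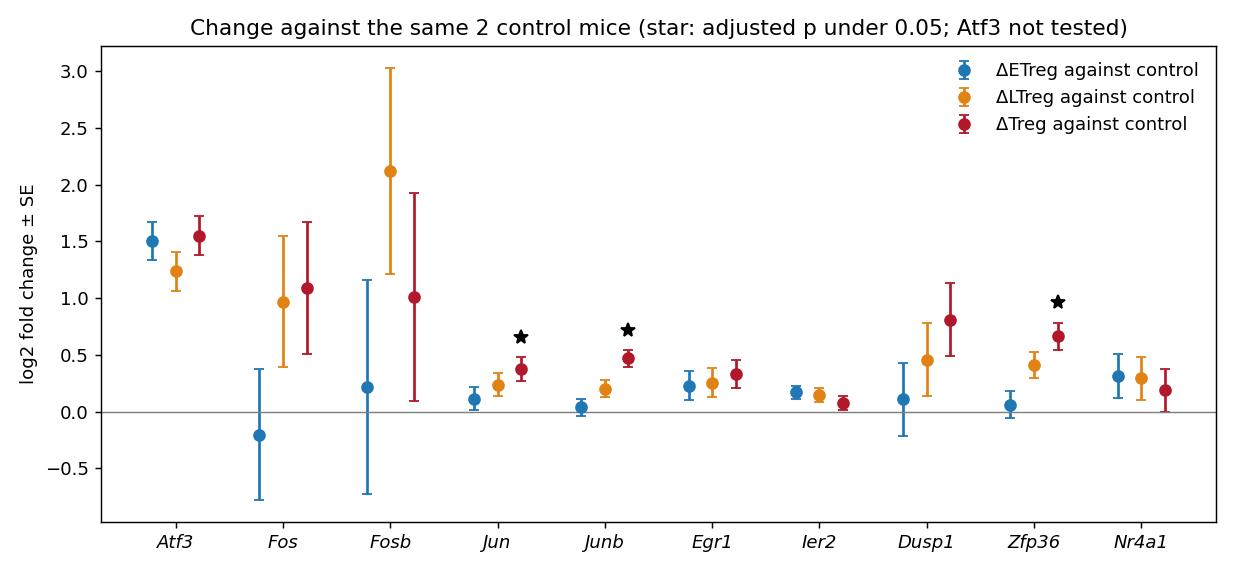
Log2 fold change against the 2 control mice (vertical axis, bars: SE of the fit on 11 libraries) of each gene in ΔETreg, ΔLTreg and ΔTreg skin, with a star where the edgeR adjusted p was under 0.05 and no test for Atf3. Junb, Zfp36 and Jun carry a star in ΔTreg skin, and the widest bars belong to Fos and Fosb.

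The comparison of ΔTreg with ΔLTreg skin, both harvested on P13 the day after the last dose, asks what the doses on the earlier days added and uses no control mouse. Junb rose in ΔTreg skin by 0.27 on the log2 scale (SE 0.064, 1.20-fold, edgeR adjusted p = 0.0157). It was the 1 call among the 10 genes, where 10.7% of all genes were called higher and 16.8% in either direction. Junb and Zfp36 lay above ΔLTreg without overlap, as did 19.2% of all genes, and Zfp36 was at 0.25 (SE 0.10, adjusted p = 0.124). The median log2 fold change of the 10 was 0.13, against -0.0044 for all genes, and 0.30 against -0.0081 without ΔLTreg mouse 1. Fos was at 0.12 (SE 0.49), Dusp1 at 0.35 (SE 0.28), Egr1 at 0.076 (SE 0.11) and Fosb at -1.11 (SE 0.73), with overlapping mice in each.

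Leaving out ΔLTreg mouse 1 moved this comparison most. All 3 ΔTreg mice lay above ΔLTreg mice 2 and 3 for 9 of the 10 genes, the exception being Ier2, as they did for 24.9% of all genes. Then 5 of the 10 were called, where 16.1% of all genes were called in either direction. Fos was higher by 1.30 (edgeR adjusted p = 0.00145), Dusp1 by 0.91 (adjusted p = 0.000640), Zfp36 by 0.34 (adjusted p = 0.0488), Junb by 0.26 (adjusted p = 0.0311) and Egr1 by 0.25 (adjusted p = 0.0198). Atf3 was at 0.44 (edgeR adjusted p = 0.0637), Jun at 0.24 (adjusted p = 0.0579) and Fosb at 0.85 (adjusted p = 0.1196). In the other direction, the call of Junb was lost without ΔTreg mouse 1 (0.25, edgeR adjusted p = 0.0678) or ΔTreg mouse 2 (0.24, adjusted p = 0.0677).

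**Figure D3:**
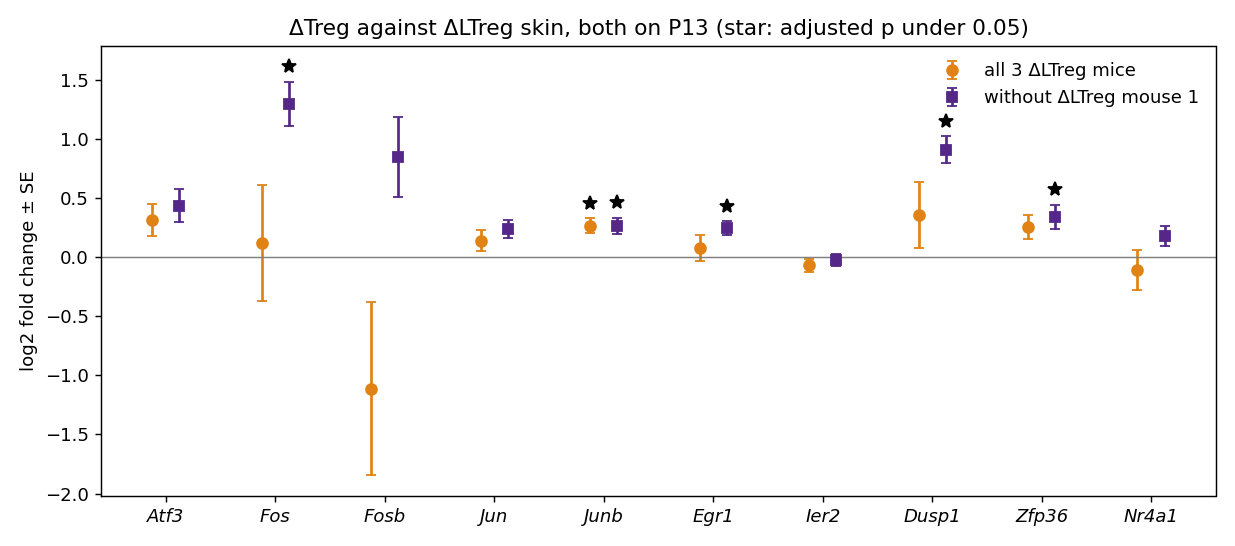
Log2 fold change of ΔTreg over ΔLTreg skin (vertical axis, bars: SE), fitted with all 3 ΔLTreg mice (circles) and without ΔLTreg mouse 1 (squares), with a star where the edgeR adjusted p was under 0.05. With all mice Junb alone carries a star, and without that mouse Fos, Junb, Egr1, Dusp1 and Zfp36 do.

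ΔETreg against ΔLTreg skin sets 2 early against 2 late doses, and the groups also differ in age at harvest. In this comparison edgeR called 0 of the 10 genes, and 4 had an unadjusted p under 0.05. Of all genes 6.38% were called and 22.7% had an unadjusted p under 0.05. DESeq2 also called 0, where it called 7.01% of the genes it tested, but it gave no adjusted p for Fosb. Without ΔLTreg mouse 1 the edgeR count was also 0, where 5.6% of all genes were called. The median log2 fold change was -0.14, against -0.0053 for all genes, and its sign turned without that mouse, to 0.068 against -0.0088. Junb, at -0.16 (SE 0.064, edgeR adjusted p = 0.157), and Zfp36, at -0.35 (SE 0.10, adjusted p = 0.0718), lay below ΔLTreg without overlap, as did 13.7% of all genes. Zfp36 was called without ΔLTreg mouse 3, at -0.45 (edgeR adjusted p = 0.0146).

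The spread within the ΔLTreg group fell on a few of the genes. Relative to the mean of its 2 group mates, ΔLTreg mouse 1 had 9.63 times the Fosb, 4.74 times the Fos and 2.41 times the Dusp1, followed by Nr4a1 (1.66 times), Egr1 (1.39), Atf3 (1.27), Jun (1.23), Zfp36 (1.20), Ier2 (1.11) and Junb (1.00). It was the highest mouse of its group for 9 of the 10 genes, where 39.0% of all genes were highest there. None of the other 8 depleted libraries had any of the 10 genes at 2 or more times the higher of its mates, a mark reached by 0.37% to 1.01% of all genes in those libraries. In ΔLTreg mouse 1 it was also reached by 0 of 37 other immediate early genes, whose median log2 ratio to the mates was 0.11, against 0.41 for the 10 genes and 0.032 for all genes. In that library the most abundant gene took 1.34% of counts, against 3.16% and 3.29% in its mates, and the 6 skeletal muscle markers summed to 4445.7 CPM, between the 1826.3 and 6856.0 CPM of its mates. Their part in the result was not tested.

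**Figure D4:**
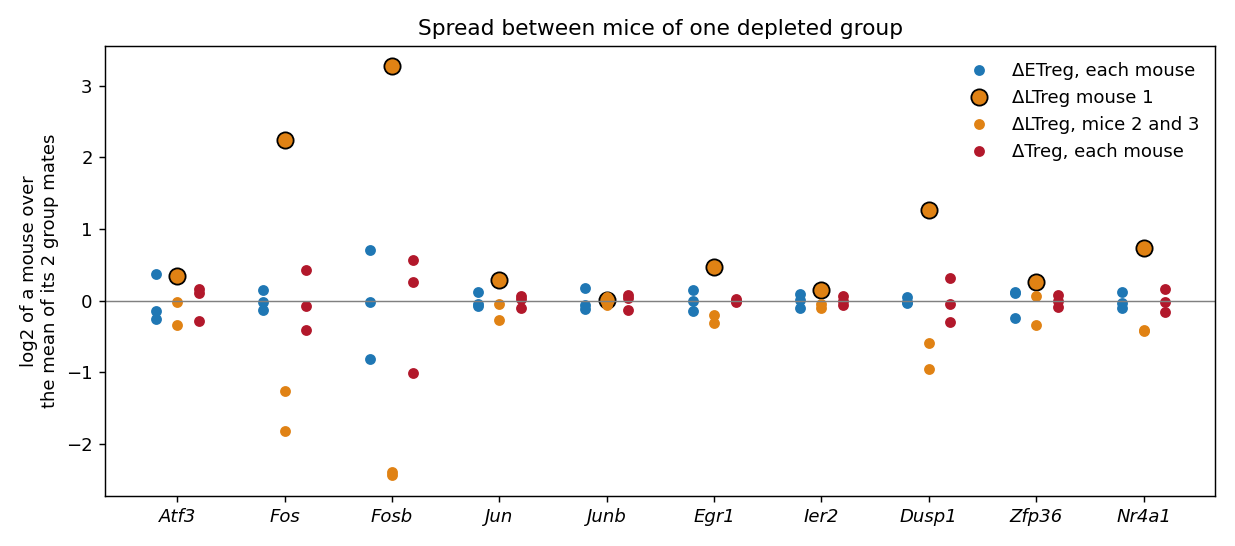
Log2 ratio of each depleted mouse to the mean of its 2 group mates (vertical axis, 0 means equal) for the 10 genes, with ΔLTreg mouse 1 ringed. The ringed mouse reaches 3.27 for Fosb, 2.25 for Fos and 1.27 for Dusp1, but lies at 0.0024 for Junb.

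The wider pathway was read from lists chosen with earlier results of these data known. Of 10 other AP-1 subunits, 3 rose and 1 fell in ΔTreg against control, and 6 rose against ΔLTreg. Over all genes tested, 12.1% rose and 9.39% fell against control, and 10.7% rose and 6.11% fell against ΔLTreg. Those that rose against control were the BATF factors, which pair with JUN proteins in lymphoid and myeloid cells. Batf2 was at 10.8 ± 2.10 CPM (SD, n = 3) in ΔTreg, 0.908 ± 0.674 in ΔLTreg (n = 3) and 0.385 ± 0.15 in control skin (n = 2), a log2 fold change of 4.77 over control (SE 0.48, edgeR adjusted p = 6.43e-05). Batf rose by 1.82 (SE 0.35, adjusted p = 0.00347) and Batf3 by 1.81 (SE 0.37, adjusted p = 0.00562), while Jdp2, a repressor of AP-1, fell. Fosl2, an abundant FOS-related subunit at 372 CPM in ΔTreg skin, rose against ΔLTreg by 0.24 (SE 0.074, edgeR adjusted p = 0.0479), together with Maff and Mafk. The median log2 fold change of the list was 0.25 against control and 0.28 against ΔLTreg.

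In the lists of other immediate early genes and AP-1 targets every call in ΔTreg skin was a rise. Of 37 other immediate early genes 21 rose against control and 13 against ΔLTreg, and 0 fell in either, with list medians of 0.33 and 0.23. Over all genes tested, 12.1% and 10.7% rose, and 9.39% and 6.11% fell. Socs3, which dampens cytokine receptor signals, rose by 1.41 against control (SE 0.21, edgeR adjusted p = 0.000817) and by 1.29 against ΔLTreg (SE 0.18, adjusted p = 0.000636). Cebpd, an acute phase transcription factor, rose by 1.44 (SE 0.16, adjusted p = 0.00014) and 0.93 (SE 0.14, adjusted p = 0.000927), and Tnfaip3, an inhibitor of NF-κB, by 0.86 (SE 0.078, adjusted p = 3.18e-05) and 0.60 (SE 0.068, adjusted p = 0.000152). Of 13 AP-1 target genes tested, 11 rose against control and 9 against ΔLTreg, with medians of 1.19 and 0.95. Ccl2, a monocyte chemokine, went from 1.72 ± 0.74 CPM in control (SD, n = 2) and 2.79 ± 1.06 in ΔLTreg (n = 3) to 33.97 ± 10.1 in ΔTreg skin (n = 3). That was a log2 rise of 4.28 over control (SE 0.40, edgeR adjusted p = 3.57e-05). The collagenase gene Mmp13 and the cytokine gene Il6 were at 7.68 ± 4.53 and 0.825 ± 0.265 CPM (SD, n = 3) in ΔTreg skin. Their means in the other groups were at most 0.0601 and 0.133 CPM, too few counts for a fold change. Both passed the filter on low counts through the ΔTreg mice alone. Their calls, which are among the 11 and the 9, are thus a description and no support.

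Upstream kinases, their partners and other phosphatases gave few calls. Of 8 other MAP kinase phosphatases, 1 rose in ΔTreg against control, Dusp2, by 0.34 (SE 0.081, edgeR adjusted p = 0.0130), and none was called against ΔLTreg. Of 19 kinases and serum response factor partners, Map2k1 rose by 0.32 against control (SE 0.048, adjusted p = 0.000855) and by 0.23 against ΔLTreg (SE 0.043, adjusted p = 0.00419), and Creb1 fell against control. Lists of other stress programmes also had few calls, in both directions against control. Over all genes tested, 12.1% rose and 9.39% fell against control, and 10.7% rose and 6.11% fell against ΔLTreg. Of 12 genes of the ATF4 response, in which Atf3 is also a known target, 2 rose and 2 fell against control. Ddit3 rose by 0.51 (SE 0.12, edgeR adjusted p = 0.0143), and Psat1 and Phgdh, of serine synthesis, fell by 0.48 and 0.37. Against ΔLTreg, 1 rose and 2 fell. Of 10 heat shock genes 2 rose, the near-identical copies Hspa1a and Hspa1b, whose counts are uncertain, and 1 fell against control. Hspa1a was no longer called without ΔLTreg mouse 1. Against ΔLTreg 0 rose and 2 fell. Of 11 p53 targets 1 rose and 1 fell against control, and 0 rose and 3 fell against ΔLTreg.

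In the other comparisons the same lists gave few calls. In ΔETreg against control 0 genes were called in any of these lists, where 0.00544% of all genes were called. Without ΔLTreg mouse 1 the counts higher and lower in ΔTreg against ΔLTreg were 5 and 0 of the AP-1 subunits (Fosl2 was no longer called) and 14 and 0 of the immediate early genes. They were 9 and 0 of the AP-1 targets (Mmp13 and Il6 among the 9), 1 and 0 of the phosphatases and 2 and 0 of the kinases and partners. They were 0 and 3 of the ATF4 response (Chac1 was no longer called), 0 and 4 of the heat shock genes and 0 and 1 of the p53 targets, where 10.3% of all genes were higher and 5.82% lower. In ΔLTreg against control, with all mice, the immediate early genes Cebpb, Per1 and Plk2, the phosphatase gene Dusp4, the ATF4 target Sesn2 and the AP-1 target Hbegf rose and Jdp2 fell (Per1 and Dusp4 were no longer called without mouse 1), where 1.86% of all genes rose and 2.69% fell. Between ΔETreg and ΔLTreg, Jdp2, Egr4, Gadd45b, Dusp6 and Mkl1 were higher and Map2k1, Sesn2, Trp53inp1, Mmp9 and Mmp3 lower in ΔETreg, where 3.27% of all genes were higher and 3.12% lower. Without ΔLTreg mouse 1, Gadd45b, Map2k1 and Mmp3 were no longer called, and Plk2, Dusp2, Hspb1 and Zmat3 were newly called lower in ΔETreg. In that fit 3.24% of all genes were higher and 2.36% lower. In ΔLTreg against control the same fit newly called Hspb1 higher and Dusp6 lower, where 1.88% of all genes rose and 3.08% fell.

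**Figure D5:**
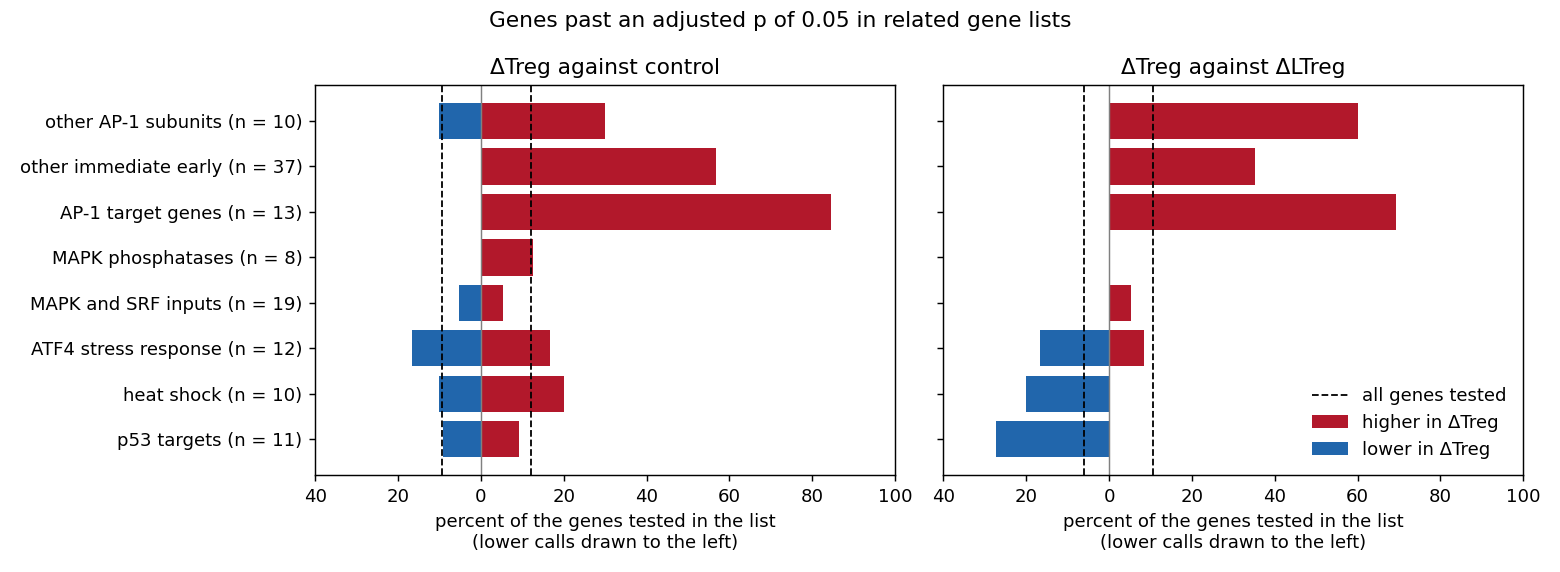
Share of the genes tested in each list that passed an edgeR adjusted p of 0.05 in ΔTreg skin against control (left) and against ΔLTreg (right), higher calls to the right of 0 and lower calls to the left, in percent, with dashed lines at the shares over all genes tested. AP-1 targets (11 of 13 and 9 of 13 higher) and other immediate early genes (21 and 13 of 37) extend furthest past the lines on the left panel. The AP-1 targets include Mmp13 and Il6, which passed the filter on low counts through ΔTreg skin alone.

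Markers of several cell types differed in the same groups. The 7 T cell markers summed to 48.1 to 60.2 CPM in ΔTreg skin, against 11 to 13.3 in control, 10.7 to 13.4 in ΔETreg and 13.6 to 16.7 in ΔLTreg skin, with Cd8a and Cd8b1 at 3 counts or fewer outside ΔTreg. The 6 macrophage markers summed to 336.6 to 461.3 CPM in ΔTreg, against 150.5 to 198.7 in control, 108.7 to 168.0 in ΔETreg and 84.3 to 191.3 in ΔLTreg skin. Of these, Mrc1, Cd68 and Adgre1 were called higher in ΔTreg against control and 3 were not called. Against ΔLTreg 5 were called higher. The 7 neutrophil markers summed to 32.8 to 41.0 CPM in ΔTreg, against 13.4 to 14.1 in control, 8.9 to 11.8 in ΔETreg and 17.0 to 18.2 in ΔLTreg skin, although the defining markers Ly6g and Mpo were at 3 counts or fewer in every group. The 5 fibroblast markers summed to 6649.4 to 7443.4 CPM in ΔTreg, against 13037.5 to 14914.9 in control, 9476.3 to 16992.1 in ΔETreg and 6199.6 to 13409.1 in ΔLTreg skin. Of these, Col1a1, Col1a2 and Lum were called lower in ΔTreg against control, and Dcn and Pdgfra were not called. Against ΔLTreg the only call was that of Pdgfra, which was higher. The sum of the 4 endothelial markers stayed between 183.0 and 205.0 CPM in every library, but single markers moved in opposite directions. In ΔTreg skin Pecam1 was called higher and Kdr and Cdh5 lower, against control and against ΔLTreg. Of the 6 keratinocyte markers, Krt14 was called higher and Krt1 and Krt10 lower in ΔTreg against control. With all mice 0 were called against ΔLTreg, and Krt1 was also called lower in ΔLTreg against control. The 6 skeletal muscle markers summed to 1761.7 to 3449.7 CPM in ΔTreg and 1826.3 to 6856.0 in ΔLTreg skin. Both ranges lay above the 1453.5 to 1526.3 CPM of control, and ΔETreg skin, at 1180.4 to 1958.3, spanned it. Myh4 alone was called in ΔTreg against control, as higher, and Mylpf and Myh4 were called lower against ΔLTreg. The 5 erythroid markers summed to 137.8 to 177.5 CPM in ΔTreg and 140.9 to 237.1 in ΔETreg skin. Both ranges lay below the 249.1 to 265.1 CPM of control, and ΔLTreg skin was at 150.3 to 249.9. The part of these markers in the rise of Junb, Zfp36, Jun and the listed genes in ΔTreg skin was not tested.

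The genes most like Atf3 over the 11 libraries were not members. Among 13896 genes with a mean count of at least 50, the highest Pearson correlations of log2 CPM with Atf3 were those of Cenpt (0.93), a centromere protein gene, Spire2 (0.92), an actin nucleator gene, Gga1 (0.91), a clathrin adaptor gene, Otud7b (0.896), a deubiquitinase gene, and Amigo3 (0.89). Their ranges were narrow. Cenpt was at 23.2 to 23.4 CPM in control and 24.9 to 27.3 CPM in the depleted mice, and Spire2 at 4.82 to 4.83 CPM in control and 5.999 to 7.57 CPM in the depleted mice. Of the other 9 members, Egr1 was most like Atf3 (0.70, rank 183), then Jun (0.68, rank 245) and Ier2 (0.65, rank 333). Fos and Fosb were least like it (both 0.36, ranks 2516 and 2524). The points share libraries and group differences, and these correlations describe the pattern without a test.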

How the data were processed

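Bulk RNA sequencing of whole skin was analysed for 11 mice, grouped by the treatment in the labels. Per the labels' processing notes and the study's methods, the authors used Trimmomatic 0.36 for trimming, STAR 2.5.2b for alignment to GRCm38 and featureCounts (Subread 1.5.2) for assignment to exons, and the deposited values are raw counts per gene without normalization. The strand setting and annotation release are not given in the sources used here. Symbols were those given with the deposited counts, and positions and exon lengths were taken from GENCODE M21 (GRCm38). Genes read from overlapping exons or near-identical copies are uncertain. The authors' own tables of fold changes and p-values were not used.

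Counts were filtered by group with filterByExpr (18375 genes left), scaled by TMM and fitted in 1 model of 11 libraries with a mean per group in edgeR 4.0.16 (R 4.3.3, limma 3.58.1). Pairs of groups were tested with the quasi-likelihood F test and Benjamini-Hochberg adjustment over all genes tested, at a threshold of 0.05, in 5 comparisons. An SE is the log2 fold change over the square root of F. Log2 CPM used a prior count of 2. The scripts were tested on simulated data. Each library is 1 mouse, and p-values measure the spread between these mice. Totals of 23377571 to 34159435 counts set the precision.

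Members and lists were chosen with earlier results of these data known. Named were all 10 members, the 3 genes with the smallest p in ΔTreg against ΔLTreg of each list, a few fixed related genes and the 5 genes most like Atf3; others named were chosen after their values were seen, as all those called in a count. Areg was not analysed here. Alternatives were DESeq2 1.42.0, the 2 groups alone, other scaling, other filters and leaving out each mouse. The fits of ΔETreg and ΔTreg against control, and of the lists, without ΔLTreg mouse 1 were added after seeing the data.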

Additional observations from a re-analysis of the deposited data

How the results depend on the processing

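The limits are 2 or 3 mice a group, control mice whose harvest day is not in the labels, and 1 ΔLTreg mouse that sets the spread of Fos, Fosb and Dusp1. No paired analysis was possible because the labels give no replicate numbers that the groups share. Of the alternative values of single genes, 496 kept their direction and side of the threshold, 29 were newly called, 5 lost the call and 23 changed sign, and 35 of Atf3 against control, which have no test, kept their direction and moved by less than the spread between mice. Without a filter on low counts the number of members called became 4 in ΔLTreg against control (Fos, Fosb, Dusp1, Zfp36), 6 in ΔTreg against control, 4 in ΔTreg against ΔLTreg (Fosb lower, Junb, Dusp1 and Zfp36 higher) and 3 in ΔETreg against ΔLTreg (Fos, Fosb and Zfp36), where 5.01%, 11.6%, 10.4% and 6.08% of 35745 genes were called. DESeq2 called 7 in ΔTreg against control (3521 of all 19580 genes). The 2 groups alone and the fit without ΔLTreg mouse 1, which was added after seeing the data, each called 6. The cause of these changes was not tested.

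Leaving out 1 mouse at a time, members called stayed at 0 in ΔETreg against control and ranged from 0 to 1 in ΔLTreg against control, 2 to 6 in ΔTreg against control, 0 to 5 in ΔTreg against ΔLTreg and 0 to 1 in ΔETreg against ΔLTreg. The share of all genes called in the same fits also moved. In the same order of comparisons it ran from 0.0% to 0.0369%, 1.54% to 4.96%, 10.5% to 24.8%, 10.8% to 16.1% and 1.94% to 6.41%. All changes of sign arose in these fits, and no value with a changed sign was past the threshold. In ΔTreg against ΔLTreg the ranges of Fos and Egr1 end in called values of unchanged sign, 1.30 and 0.25. The log2 fold changes that changed sign in ΔETreg against control ranged from -0.39 to 0.013 for Fos, -0.041 to 0.45 for Fosb, -0.022 to 0.084 for Junb and -0.055 to 0.18 for Zfp36. In ΔLTreg against control they ranged from -0.21 to 1.37 for Fos and -0.10 to 0.72 for Dusp1. In ΔTreg against ΔLTreg they ranged from -0.28 to 1.30 for Fos, -1.57 to 0.85 for Fosb, -0.018 to 0.25 for Egr1 and -0.23 to 0.18 for Nr4a1. In ΔETreg against ΔLTreg they ranged from -1.56 to 0.0058 for Fos, -2.36 to 0.061 for Fosb, -0.11 to 0.15 for Egr1, -0.0054 to 0.074 for Ier2, -0.60 to 0.21 for Dusp1 and -0.098 to 0.31 for Nr4a1.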
